A study of Mus musculus with 7 samples.

Results

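Embryonic globins and erythroid genes are described here across 3 tissues of the early mouse kidney and a kidney cell line. The set holds 5 genes, the embryonic globins Hbb-y, Hbb-bh1 and Hba-x, the haem synthesis gene Alas2 and the red cell transcription factor gene Klf1. Every array probe set annotated to exactly 1 of these genes was taken, which gave 9 probe sets of the 34945 probe sets on the array that list a single gene, and 5 genes of 18193. Hbb-y and Hbb-bh1 have 3 probe sets each, and Hba-x, Alas2 and Klf1 have 1 each.

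Tissue was microdissected from kidneys of mouse embryos at stage E12.5 and hybridised to Affymetrix mouse genome arrays, a study design that sets gene expression in the ureteric bud beside the mesenchyme around it and beside a collecting duct cell line. The groups were ureteric bud tips (2 arrays), the growing ends of the epithelial tree, ureteric bud stalks (2 arrays), the trunks behind those ends, metanephric mesenchyme (2 arrays), which forms nephrons and stroma, and mIMCD-3 (1 array). The tissue pairs are labelled as biological replicates, with no genotype, strain or treatment named in the labels, and each array received label made from 1 ug of total RNA. The mIMCD-3 line comes from mouse inner medullary collecting duct, and the array holds 1 subclone, grown to confluency and hybridised apart from the tissues, so cell line and batch cannot be told apart.

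The first red cells of a mouse embryo, the primitive erythroid cells, arise in the yolk sac, enter the circulation with their nuclei and carry embryonic globins. Haemoglobin joins alpha-type and beta-type chains: Hba-x codes for the embryonic alpha-type chain, and Hbb-y and Hbb-bh1 for embryonic beta-type chains, while later red cells from the fetal liver carry adult chains. Alas2 is the red cell form of the enzyme that starts haem synthesis, and Klf1 is a zinc finger factor that binds CACCC words in globin and other erythroid promoters, where GATA factors also act.

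Of the 5 genes, 4 are in the promoter table of RefSeq, build GRCm38.p6. The 250 bases before the annotated start of each are printed because 3 of these genes moved together across the tissues and Klf1 did not. Capitals mark 2 kinds of words searched on both strands, GATA words (the letters GATA after A or T and before A or G) and CACCC, and these words do not overlap in the windows shown. Hbb-y lies on the minus strand at chr7:103853208-103853457, Hba-x on the plus strand at chr11:32276350-32276599, Alas2 on the plus strand at chrX:150547167-150547416 and Klf1 on the plus strand at chr8:84901732-84901981.
Hbb-y: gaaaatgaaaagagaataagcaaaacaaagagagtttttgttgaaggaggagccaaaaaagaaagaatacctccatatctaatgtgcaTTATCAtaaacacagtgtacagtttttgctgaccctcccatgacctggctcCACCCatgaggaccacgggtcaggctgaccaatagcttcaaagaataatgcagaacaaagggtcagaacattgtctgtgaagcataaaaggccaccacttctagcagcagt
Hba-x: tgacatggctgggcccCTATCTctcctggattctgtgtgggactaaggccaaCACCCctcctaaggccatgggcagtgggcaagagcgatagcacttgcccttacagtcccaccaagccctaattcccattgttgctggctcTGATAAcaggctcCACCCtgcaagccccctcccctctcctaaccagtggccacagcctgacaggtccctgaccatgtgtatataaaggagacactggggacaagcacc
Alas2: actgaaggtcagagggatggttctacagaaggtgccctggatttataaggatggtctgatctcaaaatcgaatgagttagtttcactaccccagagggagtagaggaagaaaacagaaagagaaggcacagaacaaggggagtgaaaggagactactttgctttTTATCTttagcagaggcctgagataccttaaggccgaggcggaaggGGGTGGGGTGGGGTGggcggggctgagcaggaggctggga
Klf1: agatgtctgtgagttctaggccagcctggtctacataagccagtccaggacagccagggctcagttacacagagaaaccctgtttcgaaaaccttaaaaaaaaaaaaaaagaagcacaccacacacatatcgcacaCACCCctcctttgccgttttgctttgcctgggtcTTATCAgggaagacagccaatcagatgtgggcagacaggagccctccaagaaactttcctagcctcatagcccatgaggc

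Each of the 4 windows holds a GATA word and a CACCC word. Among 32851 promoter windows of the same length, 26.5% hold a GATA word, 52% hold CACCC and 11.8% hold both. In Hbb-y the GATA word spans -162 to -157 on the minus strand and CACCC spans -111 to -107, counted back from -1 at the base before the start. Hba-x holds GATA words at -234 to -229 and -108 to -103, and CACCC at -198 to -194 and -95 to -91. Alas2 holds a GATA word at -86 to -81 and 3 CACCC words in a row on the minus strand, of which the one nearest the start spans -30 to -26. The window of Klf1 holds a GATA word at -80 to -75 and CACCC at -114 to -110. The part that these words play in the transcript values was not tested. A match describes the letters and does not show that a factor binds there.

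The deposited values are robust multichip average (RMA) intensities, given here as log2, so that a difference of 1 is a doubling. The tissue arrays had medians of 45.5 to 49.0 intensity units and the mIMCD-3 array had 42.0. Levels of 4 genes were read as a check of the labels. Cdh1, an epithelial cadherin, read 10.97 to 11.09 in tips, 10.45 to 10.49 in stalks, 3.68 to 4.0 in mesenchyme and 10.88 in mIMCD-3. Ret, a receptor of the bud tip, read 10.70 to 11.07 in tips, 8.52 to 8.89 in stalks, 4.56 to 5.0 in mesenchyme and 4.12 in mIMCD-3. Both followed the labels of bud and mesenchyme. The nephron progenitor factor Six2 read 6.80 to 6.86 in tips, 7.58 to 7.63 in stalks, 9.84 to 9.88 in mesenchyme and 5.90 in mIMCD-3. The stromal factor Foxd1 read 6.14 to 6.63 in tips, 9.88 to 9.94 in stalks, 11.06 to 11.12 in mesenchyme and 9.57 in mIMCD-3, so the stalk arrays carried a stromal transcript nearer to the mesenchyme than to the tip level. Of 12 genes of nephron progenitors and stroma 11 were called lower in tips than in mesenchyme, where 8.37% of all genes were. All 12 listed genes of bud epithelium were called higher, where 7.38% of all genes were.

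Tests used limma over all 18193 genes on the 6 tissue arrays, with 1 probe set per gene. This was the brightest on average over all 7 arrays, mIMCD-3 included. A gene counts as called where its adjusted p, after Benjamini and Hochberg, was under 0.05. In tips against mesenchyme 8.37% of all genes were called lower and 7.38% higher. In stalks against mesenchyme 1.24% were called lower and 4.3% higher, and in tips against stalks 6.97% were called lower and 2.86% higher. With replicate number in the model as a block, 2331 genes were called lower in tips than in mesenchyme and 2037 higher, against 1523 and 1342 without it. Under the block the counts were also 577 lower against 225 and 1231 higher against 782 in stalks against mesenchyme, and 2131 lower against 1268 and 1623 higher against 521 in tips against stalks. The 3 comparisons share arrays, and so they are not independent of each other.

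The 3 embryonic globins and Alas2 were lower in tips than in mesenchyme, and Klf1 was not called. Their differences ranged from -2.91 for Hbb-bh1 to -0.86 for Hbb-y, and 4 of the 5 genes were called lower where 8.37% of all genes were. The median difference of the 5 genes was -1.51, beside 0.01 over all genes. In stalks against mesenchyme Hbb-bh1, Hba-x and Alas2 were called lower, 3 of the 5 genes where 1.24% of all genes were, with a median of -0.85 beside -0.04 over all genes. In tips against stalks the 3 globins and Alas2 were called lower, 4 of the 5 where 6.97% of all genes were. The median was -0.72 beside 0.07. Leaving out either stalk array left 1 of the 5 genes called in stalks against mesenchyme and 2 of the 5 in tips against stalks. In these bulk samples, fewer red cells in a tissue and less of a transcript per cell cannot be told apart.

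**Figure D1:**
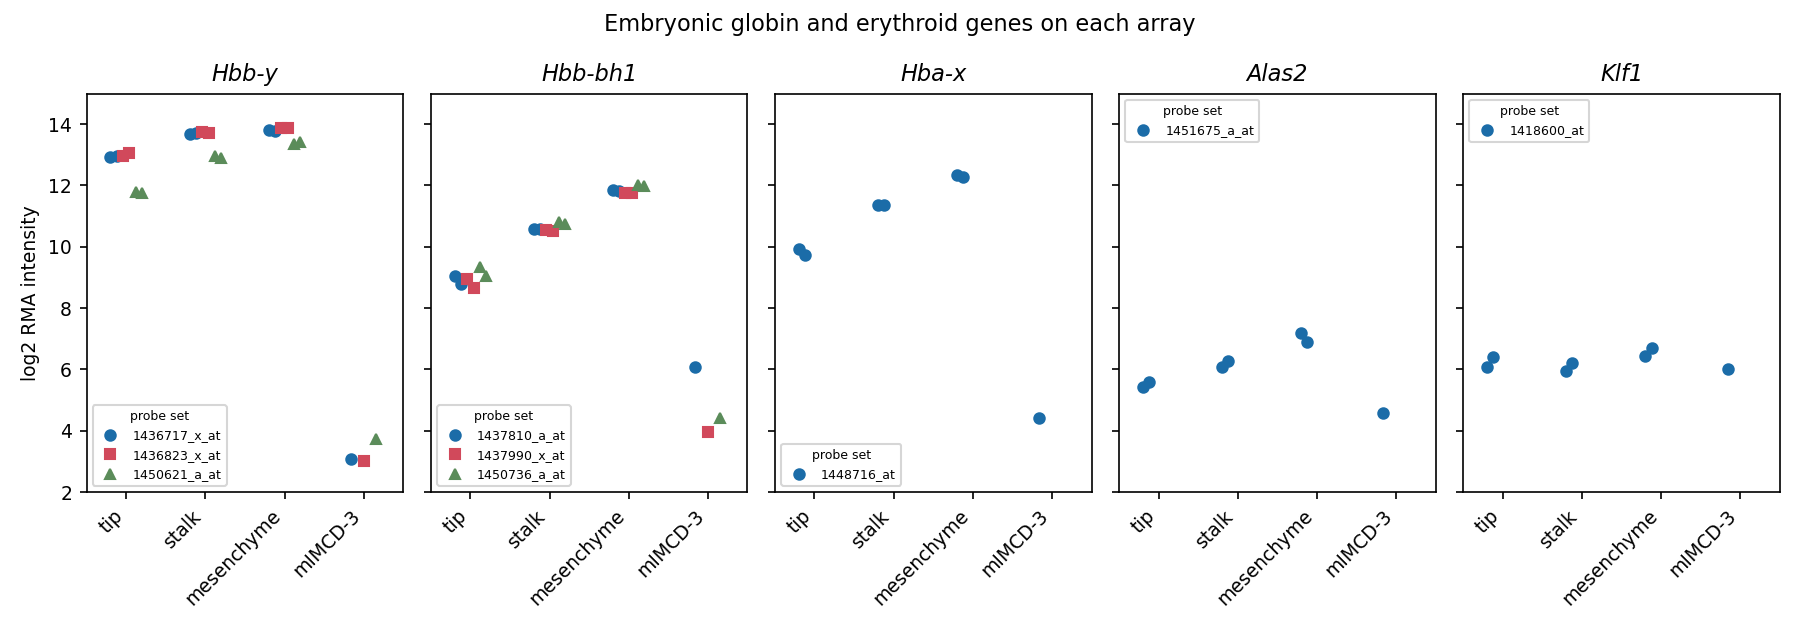
Log2 RMA intensity (vertical axis) of the 5 genes, 1 panel per gene, on each array of tips, stalks, mesenchyme and mIMCD-3, with 1 point per array and 1 symbol per probe set. The globins and Alas2 are lowest among the tissues in tips and highest in mesenchyme, while the Klf1 arrays lie between 5.95 and 6.70 in the tissues.

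Hba-x, the embryonic alpha-type globin, read 9.94 and 9.74 in tips, 11.38 and 11.36 in stalks, 12.34 and 12.28 in mesenchyme and 4.43 in mIMCD-3. No array of a tissue overlapped with those of another, and the gap between tissues was several times the gap between replicates. Hba-x was 5.53-fold lower in tips than in mesenchyme (log2 difference -2.47 ± 0.13 SE, n = 2 arrays each, limma adjusted p = 1.4e-05). It was 1.91-fold lower in stalks than in mesenchyme (-0.94 ± 0.13, adjusted p = 0.00506) and 2.89-fold lower in tips than in stalks (-1.53 ± 0.13, adjusted p = 0.000315). The call in stalks against mesenchyme was lost without stalk array 1 (adjusted p = 0.0529) or stalk array 2 (0.0541).

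Among the beta-type globins, Hbb-bh1 had the larger differences. On the probe set used for the test, 1437810_a_at, it read 9.03 and 8.79 in tips, 10.58 and 10.59 in stalks, 11.84 and 11.81 in mesenchyme and 6.09 in mIMCD-3. The tissues again did not overlap. Hbb-bh1 was 7.54-fold lower in tips than in mesenchyme (-2.91 ± 0.13 SE, n = 2 arrays each, adjusted p = 8.18e-06), 2.36-fold lower in stalks than in mesenchyme (-1.24 ± 0.13, adjusted p = 0.0014) and 3.19-fold lower in tips than in stalks (-1.67 ± 0.13, adjusted p = 0.000236). These calls held without any single array.

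The other 2 probe sets of Hbb-bh1 gave like differences. Probe set 1437990_x_at read 8.95 and 8.65 in tips, 10.55 and 10.50 in stalks, 11.77 and 11.76 in mesenchyme and 3.95 in mIMCD-3. Probe set 1450736_a_at averaged 9.18 ± 0.21 in tips, 10.78 ± 0.05 in stalks and 11.99 ± 0.02 in mesenchyme (SD, n = 2 arrays each), and read 4.41 in mIMCD-3. Their log2 differences between tips and mesenchyme were -2.96 and -2.81, or 7.79-fold and 6.99-fold lower in tips. They parted only against the cell line, where the tip mean stood 2.82 above mIMCD-3 on 1437810_a_at but 4.85 and 4.78 above it on the other 2. On every tissue array 1450736_a_at read above 1437810_a_at, which was the brightest on average only through its mIMCD-3 value (6.09).

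Hbb-y, the beta-type globin at the end of its gene cluster next to Hbb-bh1, was the globin with the smallest called differences, whose size depended on the probe set. On 1436823_x_at, the brightest, it read 12.97 and 13.05 in tips, 13.75 and 13.72 in stalks, 13.88 and 13.87 in mesenchyme and 3.03 in mIMCD-3. The tip arrays stood apart from all others, while stalk and mesenchyme were close without overlapping. Hbb-y was 1.82-fold lower in tips than in mesenchyme (-0.86 ± 0.12 SE, n = 2 arrays each, adjusted p = 0.00197) and 1.65-fold lower in tips than in stalks (-0.72 ± 0.12, adjusted p = 0.00816). The difference between stalks and mesenchyme was -0.14 ± 0.12 and was not called (adjusted p = 0.758). The call in tips against stalks was lost without stalk array 1 (adjusted p = 0.108) or stalk array 2 (0.0834), and the stalk difference from mesenchyme was called when limma's trend and robust options were used (adjusted p = 0.0259).

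Probe set 1450621_a_at of the same gene read 11.80 and 11.76 in tips, 12.96 and 12.89 in stalks, 13.35 and 13.42 in mesenchyme and 3.74 in mIMCD-3. There Hbb-y was 3.04-fold lower in tips than in mesenchyme (-1.60 ± 0.13 SE, adjusted p = 8.8e-05 over all single-gene probe sets) and 2.21-fold lower in tips than in stalks (-1.14 ± 0.13, adjusted p = 0.0011). The stalk difference from mesenchyme was -0.46 ± 0.13 (adjusted p = 0.12), against -0.10 on 1436717_x_at, the other probe set. Probe set 1436717_x_at read 12.92 and 12.95 in tips, 13.69 and 13.70 in stalks and 13.82 and 13.77 in mesenchyme, and followed 1436823_x_at.

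The brighter probe sets of Hbb-y lay near the top of the scale. On the mesenchyme arrays 1436823_x_at was 0.33 and 0.38 below the brightest probe set of the array, with 15 and 16 probe sets brighter, on the stalk arrays 0.46 and 0.52 below, and on the tip arrays 1.20 and 1.12 below. Probe set 1450621_a_at was 0.86 and 0.83 below the brightest on the mesenchyme arrays. The part that closeness to the top of the scale plays in the smaller difference of Hbb-y was not tested.

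**Figure D2:**
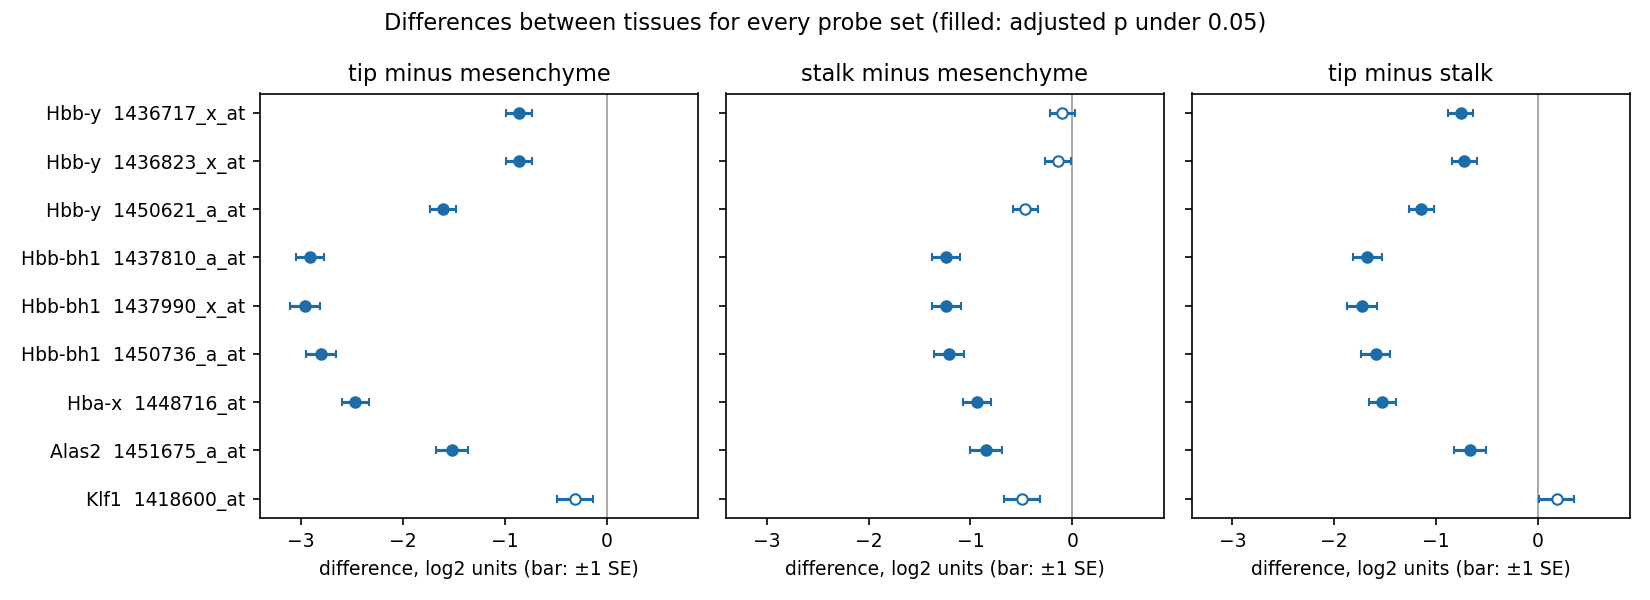
Log2 differences between tissues (horizontal axis, bars of ±1 SE, 2 arrays per tissue) for each of the 9 probe sets, filled where the adjusted p over all single-gene probe sets was under 0.05. The probe sets of Hbb-bh1 lie together, while 1450621_a_at of Hbb-y lies left of the other 2 in all 3 panels, at -1.60 against -0.86 and -0.86 in tips minus mesenchyme.

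Alas2 read 5.44 and 5.60 in tips, 6.09 and 6.28 in stalks, 7.18 and 6.89 in mesenchyme and 4.57 in mIMCD-3. It stood in the same order of tissues as the globins, and no 2 tissues overlapped. It was lower in tips than in mesenchyme by a log2 difference of -1.51 ± 0.15 SE (n = 2 arrays each, adjusted p = 0.000368) and 1.80-fold lower in stalks than in mesenchyme (-0.85 ± 0.15, adjusted p = 0.0189). The difference of tips from stalks was -0.66 ± 0.15 (adjusted p = 0.0346). The stalk call was lost without stalk array 1 (adjusted p = 0.184), stalk array 2 (0.0671) or mesenchyme array 1 (0.122). The call in tips against stalks was lost without either stalk array (0.117 and 0.268), without either tip array (0.078 and 0.055) and with log2 of the intensity plus 32 (0.0545).

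Klf1 read 6.09 and 6.42 in tips, 5.95 and 6.20 in stalks, 6.44 and 6.70 in mesenchyme and 6.03 in mIMCD-3. Tips and stalks overlapped, the mesenchyme arrays were the highest, and stalk array 1 was below the cell line. The differences were -0.31 ± 0.17 SE in tips against mesenchyme (adjusted p = 0.342), -0.49 ± 0.17 in stalks against mesenchyme (0.227) and 0.18 ± 0.17 in tips against stalks (0.585). On all 3 tissues array 2 read higher than array 1, and with the replicate block the stalk difference of -0.49 was called (adjusted p = 0.0171).

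Among tissues the order of levels was therefore tips, stalks and mesenchyme from low to high for the 3 globins and Alas2, with stalk and mesenchyme as neighbours not told apart for Hbb-y. For Klf1 the order of means was stalks (6.08), tips (6.26) and mesenchyme (6.57), and neither pair of neighbours was told apart, with the replicate block or without it.

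Against the single mIMCD-3 array the globins gave the largest differences of the set, described by size with no test. Hbb-y stood 9.98 above it in tips, 10.84 above it in mesenchyme, and was dimmer in mIMCD-3 than all but 4.53% of probe sets. Hba-x stood 5.41 above mIMCD-3 in tips, 6.94 in stalks and 7.88 in mesenchyme. Alas2 stood 0.95 above it in tips, 1.61 in stalks and 2.46 in mesenchyme. Klf1 stood 0.23 above it in tips, 0.05 in stalks and 0.54 in mesenchyme, and the stalk value turned to -0.11 when each array was centred on its median. Thus even the tip arrays, where the globins were lowest among the tissues, held far more globin signal than the cultured epithelial line.

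The measured log2 shifts differed in size between the genes. Within an array, the log2 value of Hbb-bh1 (1450736_a_at) minus that of Hbb-y (1450621_a_at) was -2.47 and -2.72 in tips, -2.15 and -2.14 in stalks and -1.35 and -1.44 in mesenchyme. The tissues did not overlap, and this contrast changed by -1.20 between tips and mesenchyme. Neither of these probe sets is the one used for the test. Against the tested Hbb-y probe set, 1436823_x_at, the change was -1.94. The change was smaller for Hbb-bh1 (1450736_a_at) minus Hba-x, at -0.34, and was -0.86 for Hba-x minus Hbb-y (1450621_a_at). Alas2 minus Hba-x was -4.51 and -4.14 in tips, -5.29 and -5.08 in stalks and -5.16 and -5.39 in mesenchyme, a change of 0.95 between tips and mesenchyme. These contrasts are given as values with no test, and the part that compression of bright and dim signals plays in them was not tested.

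Over the 6 tissue arrays the profile of each gene was set against the mean of the other 4. Pearson's r was 0.932 for Hbb-y, 0.991 for Hbb-bh1, 0.986 for Hba-x, 0.972 for Alas2 and 0.43 for Klf1. These points are 3 tissues with 2 arrays each on 1 shared scale, and the values describe these arrays. Among 2528 other genes that ranged over at least 1 log2 unit, those most like the mean of the 5 were Gm20559, Flt4, Crmp1, Colec12, Rcsd1, Fap, Ctla2a, Plekha2, Gas1 and Meox2, with r between 0.996 and 0.999. Among the tissues all 10 were lowest in tips and highest in mesenchyme, an order that comes with their choice by likeness. Flt4, a receptor of lymphatic and other endothelium, read 6.39 and 6.39 in tips, 7.10 and 7.24 in stalks and 7.92 and 7.85 in mesenchyme.

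For single genes, Tm4sf1, Tgfb1i1 and Cnn2 were most like Hbb-y, and Tril, Crabp1 and Cyp1b1 most like Hbb-bh1. Crabp1, Tril and Rspo3 were most like Hba-x, and Slc7a7, Fibin and Hspa2 most like Alas2. Klf1 stood apart, with Th (r = 0.995), Plbd1 and AU015791 nearest to it. None of these 3 was called between tips and mesenchyme. In each of them array 2 of a tissue read above array 1, as in Klf1, which their choice by likeness to Klf1 favours.

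**Figure D3:**
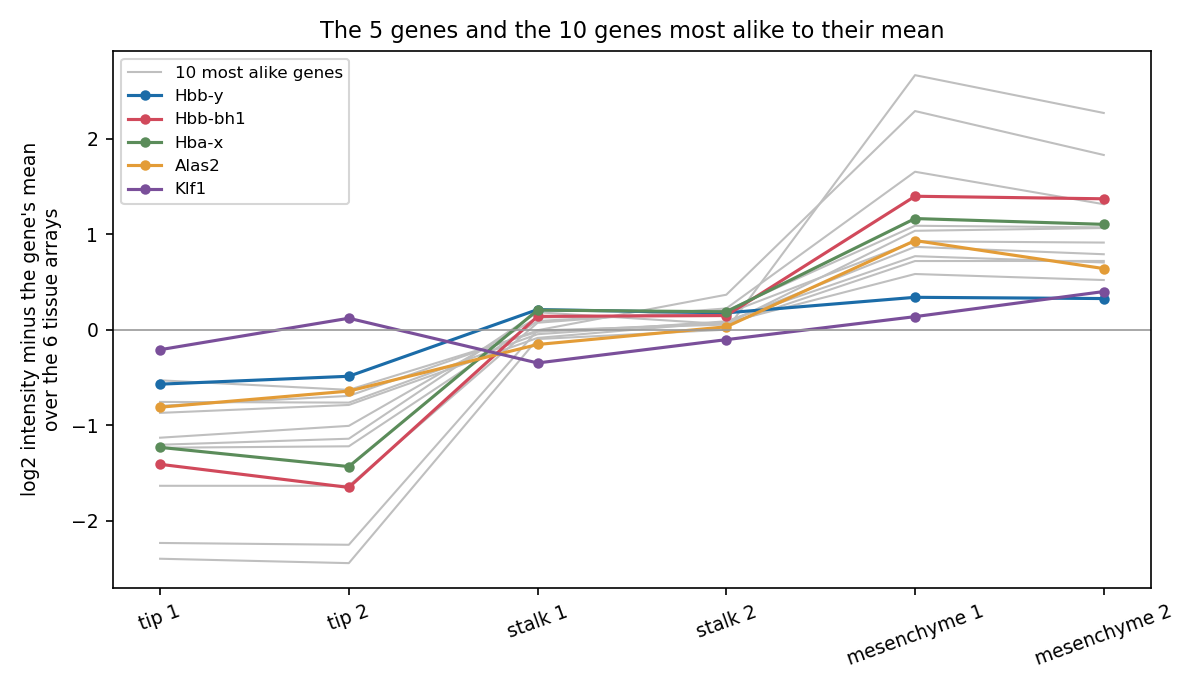
Log2 intensity minus the gene's mean over the 6 tissue arrays (vertical axis) on each tissue array, for the 5 genes in colour and the 10 genes most alike to their mean in grey. Hbb-bh1, Hba-x, Alas2 and Hbb-y climb from tips through stalks to mesenchyme, by ranges of 3.05, 2.60, 1.74 and 0.91, while Klf1 ranges over 0.75 in another order.

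Red cell membrane and skeleton genes moved in part with the globins in tips against mesenchyme. Of 16 listed, 13 were measured, 4 were called lower and 1 higher, where 8.37% and 7.38% of all genes were. The median was -0.28 beside 0.01 over all genes. The 4 were Slc4a1, the band 3 anion exchanger of red cells (-1.41, adjusted p = 0.00264), Gypc, a glycophorin (-1.15, adjusted p = 0.00641), Rhag, a Rh-associated membrane protein (-0.91, adjusted p = 0.0207), and Ermap (-0.80, adjusted p = 0.00396), which was named after its value was seen. Slc4a1 read 5.71 and 5.72 in tips, 5.87 and 6.40 in stalks, 7.32 and 6.92 in mesenchyme and 5.01 in mIMCD-3. Rhag (3.16 to 4.49) and Ermap (4.61 to 5.54) were dim, below the median of each tissue array (log2 of 5.51 to 5.62). Dmtn, an actin-bundling protein that other cells also make, was higher in tips (1.52, adjusted p = 0.000256). In stalks against mesenchyme 2 were called lower and 1 higher, where 1.24% and 4.3% of all genes were. The lower count was 0 without mesenchyme array 1 and 1 without any single tip or stalk array. The higher call, of Dmtn, was lost without stalk array 1 or mesenchyme array 1. Between tips and stalks Gypc was called lower in tips and Dmtn higher, where 6.97% and 2.86% of all genes were. Both calls were lost without either stalk array and without tip array 2. The call of Dmtn was also lost without tip array 1 and with the mean of all its probe sets.

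Erythroid transcription factor genes went both ways. Of 12, 4 were called lower in tips than in mesenchyme and 2 higher, where 8.37% and 7.38% of all genes were. The median was -0.06. Lmo2 and Tal1, partners in a blood and endothelial transcription complex, were lower in tips, with log2 differences of -1.76 (adjusted p = 8.14e-05) and -1.05 (adjusted p = 0.00686). Nfe2 and Lyl1, named after their values were seen, were lower too, with differences of -0.77 and -0.71. Nfe2 was dim, at 4.12 to 5.13 in the tissues, below the median of each array. Myb, a factor of blood and epithelial progenitors, was higher in tips (2.86, adjusted p = 4.36e-05), at 9.71 and 9.48 in tips, 8.01 and 7.82 in stalks and 7.0 and 6.48 in mesenchyme. Zfpm1, a cofactor of GATA proteins, was also higher in tips (1.0, adjusted p = 0.00111). The count of lower genes was 2 without tip array 2 or without mesenchyme array 1. The call of Lyl1 was also lost without tip array 1, and that of Nfe2 without mesenchyme array 2. In stalks against mesenchyme 0 were called lower by limma and 2 higher, against 4 and 4 at an unadjusted p under 0.05. With the replicate block these counts were 3 lower and 4 higher. Without it, 1.24% of all genes were called lower and 4.3% higher in stalks against mesenchyme, and 6.97% and 2.86% in tips against stalks. In tips against stalks 2 were called lower and 2 higher, and 1 higher without any single array.

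Gata1, the central factor of red cell development, was looked at after its values were seen. It read 4.22 and 4.69 in tips, 4.15 and 4.53 in stalks, 4.37 and 4.80 in mesenchyme and 4.12 in mIMCD-3. Its tissue arrays overlapped and lay near the cell line, and the tip difference from mesenchyme was -0.13 (adjusted p = 0.843). This value changed sign without tip array 1 (0.11) or mesenchyme array 2 (0.09).

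In the main fit the other enzymes of haem synthesis were not called lower in tips as Alas2 was. Of 8 listed, 7 were measured, and in tips against mesenchyme 1 was called higher and 0 lower by limma, with 2 lower at an unadjusted p under 0.05, 2 lower with the replicate block and 1 lower without tip array 1. The median was -0.13, and over all genes 8.37% were called lower and 7.38% higher. Of these enzymes, 2 were called lower with log2 of the intensity plus 32, and 2 without the dimmest 40% of genes. With limma's trend and robust options 1 was called lower, and 1 with the mean of all probe sets of a gene. The gene called higher was Cpox, which acts late in the pathway (0.74, adjusted p = 0.0129), and its call was lost without either mesenchyme array. Urod (-0.45, adjusted p = 0.081), Fech (-0.38, adjusted p = 0.0758) and Ppox (-0.34, adjusted p = 0.274) were not called. By limma 0 were called in stalks against mesenchyme, also at an unadjusted p under 0.05. In tips against stalks 0 were called, with 3 lower and 1 higher at an unadjusted p under 0.05, and 1 lower and 1 higher with the replicate block. The shares of all genes called lower and higher were 1.24% and 4.3% in stalks against mesenchyme and 6.97% and 2.86% in tips against stalks.

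Iron handling and other erythroid genes were mostly uncalled in tips against mesenchyme. Of 21 listed, 19 were measured, 3 were called lower and 1 higher, where 8.37% and 7.38% of all genes were. The median was 0.01. With the replicate block 3 were higher, and without tip array 2 the higher count was 2. Hemgn, a nuclear protein of blood cells, was lower (-1.53, adjusted p = 0.000327), at 3.51 and 3.66 in tips, 4.42 and 4.14 in stalks, 5.02 and 5.22 in mesenchyme and 3.27 in mIMCD-3. Blvrb, a reductase abundant in red cells, was also lower (-1.10, adjusted p = 0.000824), as was Trim10 (-0.69, adjusted p = 0.0208). Blvrb read 7.87 in mIMCD-3, above every tissue array (6.26 to 7.48), so its signal was not confined to blood. Its stalk difference from mesenchyme was 0.10 and was not called. Trim10 was dim, at 4.23 to 5.10 in the tissues and 3.97 in mIMCD-3. Tspan33, a tetraspanin, was higher in tips (2.58, adjusted p = 4.27e-05) and read 9.39 in mIMCD-3, so its signal was not confined to blood. Among all genes 1.24% were called lower and 4.3% higher in stalks against mesenchyme, and 6.97% and 2.86% in tips against stalks. Of this list, 1 was called lower in stalks than in mesenchyme, Hemgn, and 1 higher, Tspan33. The call of Hemgn was lost without stalk array 2 or mesenchyme array 2. Between tips and stalks 2 were called lower in tips, Hemgn and Blvrb, and 1 higher, Tspan33, against 4 lower and 3 higher with the replicate block. Without either stalk array 1 was lower and 0 higher, and without either tip array 0 were higher.

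**Figure D4:**
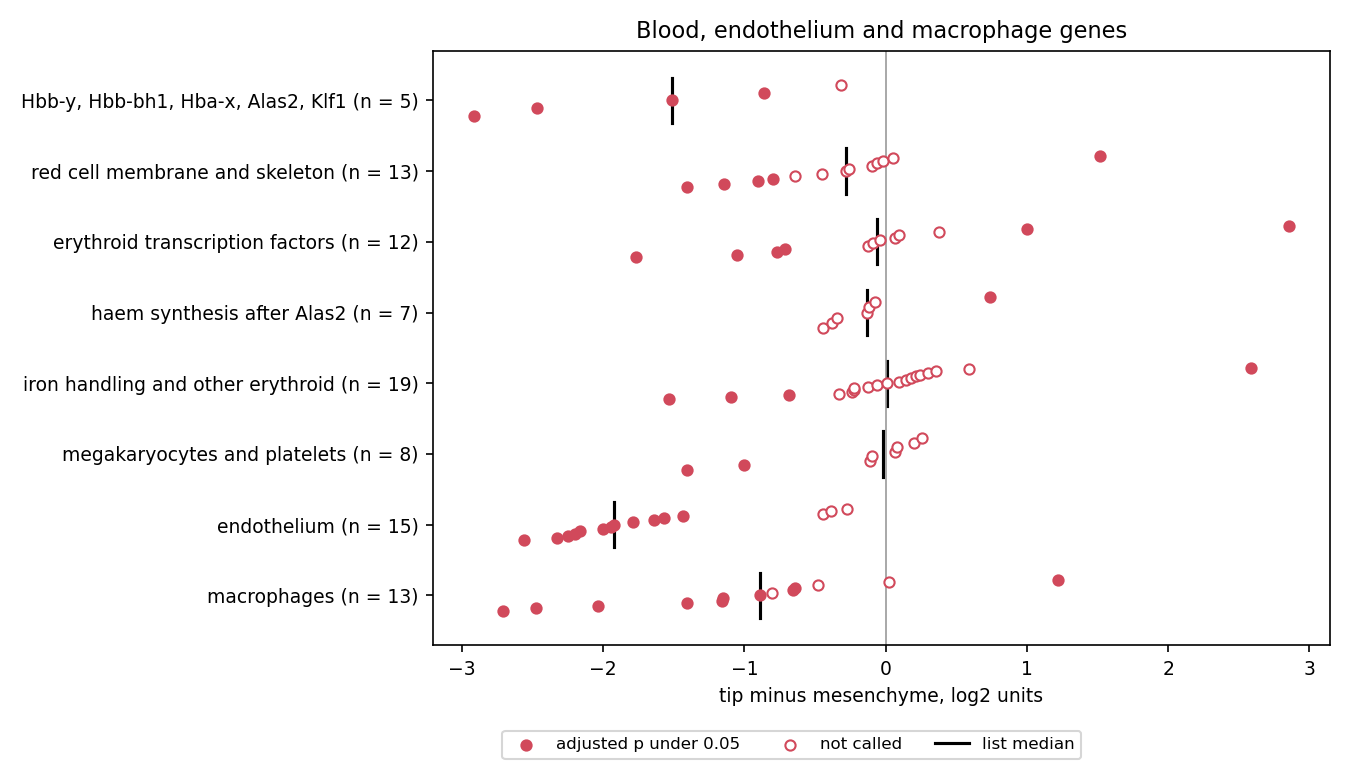
Log2 difference of tips minus mesenchyme (horizontal axis) for each measured gene of 8 lists, filled where the adjusted p was under 0.05, with a bar at each list's median. The globins, Alas2 and Klf1 have a median of -1.51 and the endothelial list one of -1.92, while the medians of the 4 other erythroid lists lie between -0.28 and 0.01.

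Markers of the vessels that carry red cells moved in the same direction. Of 15 endothelial genes, 12 were called lower in tips than in mesenchyme, where 8.37% of all genes were, with a median of -1.92. By limma 0 were higher, also at an unadjusted p under 0.05. The largest differences were those of Plvap (-2.56), Ramp2 (-2.33), Sox17 (-2.25) and Cd34 (-2.20). Of these genes 6 were called lower in stalks than in mesenchyme, 10 with the replicate block and 1 or 2 without any single stalk or mesenchyme array, with a median of -0.58. Between tips and stalks 12 were called lower in tips, with a median of -1.31. Of all genes, 1.24% were called lower in stalks than in mesenchyme and 6.97% lower in tips than in stalks. The first of these shares also rose with the replicate block. The summed intensity of the list was 1614 to 1736 in tips, 3453 to 3457 in stalks, 4990 to 5381 in mesenchyme and 721.6 in mIMCD-3. The summed intensity of the 5 genes was 9639 to 9926, 17780 to 18110, 23710 to 24140 and 187 in the same order of groups. In the tissues most of the sum of the 5 genes was Hbb-y, with 8020 of 9639 on tip array 1 and 15060 of 24140 on mesenchyme array 1.

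Macrophage genes also moved this way. Of 13, 9 were called lower in tips than in mesenchyme, where 8.37% of all genes were, with a median of -0.89. They were led by C1qb (-2.71), C1qa (-2.47), Csf1r (-2.04) and C1qc (-1.40). Ptprc, the pan-leukocyte gene, was called higher (1.22, adjusted p = 0.0259), a call lost without tip array 1 or without mesenchyme array 2. It was also lost with the mean of its 2 probe sets and with log2 of the intensity plus 32. In stalks against mesenchyme 3 were called lower, 6 with the replicate block, 6 without either tip array, and 1 without either stalk array or without mesenchyme array 1. In tips against stalks 5 were called lower, and 2 without stalk array 1, 3 without stalk array 2 or tip array 1. The shares of all genes called lower were 1.24% in stalks against mesenchyme and 6.97% in tips against stalks. The summed intensity of the list was 507.3 to 610.8 in tips, 844.8 to 880.2 in stalks, 1255 to 1407 in mesenchyme and 433.3 in mIMCD-3.

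Of 10 megakaryocyte and platelet genes 8 were measured, and 2 were called lower in tips than in mesenchyme, Pf4 (-1.41) and Ppbp (-1.0). The median was -0.02, and 8.37% of all genes were called lower. In tips against stalks 2 were called lower, and 1 without either stalk array. Between stalks and mesenchyme 0 were called by limma, with 1 lower at an unadjusted p under 0.05. Of all genes, 6.97% were called lower in tips against stalks and 1.24% in stalks against mesenchyme. The sum of this list was 536.7 to 654.3 in tips, 538.8 to 638.8 in stalks, 626.5 to 692.3 in mesenchyme and 2693 in mIMCD-3. Most of the mIMCD-3 sum was Ppbp, at a log2 of 11.13 there and 4.13 to 5.44 in the tissues. Its signal was thus not confined to blood. None of the arrays reports detection calls, so no marker can be given as absent. The part that vessel, macrophage or mesenchyme content of the dissected pieces plays in the globin differences was not tested.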

How the data were processed

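The table deposited by the authors holds intensity on a linear scale for 45101 probe sets, made by robust multichip analysis over all 7 arrays together, per the submitters' processing notes and the series' design text. Its software and version are not given in the sources used here. Intensities were converted to log2. RMA equalises the distributions of the arrays. Differences of dim and of very bright probe sets can be compressed in array intensities, and precision is limited by having only 2 arrays per tissue. Probe sets that list several genes (932) and controls (64) were left out of the tests. Each of the 18193 genes was represented by its brightest probe set on average over the 7 arrays (9010 genes had a choice). Of the Entrez identifiers, 99.1% were found in the RefSeq table of GRCm38.p6.

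The 6 tissue arrays were fitted in 1 model with limma 3.58.1 in R 4.3.3, with a coefficient per tissue, 3 residual degrees of freedom, two-sided tests and Benjamini-Hochberg adjustment over all genes. The script was tested on simulated data. The mIMCD-3 array was not in the fit. Replicate 1 minus replicate 2 correlated at 0.434 between tips and stalks, 0.569 between tips and mesenchyme and 0.39 between stalks and mesenchyme. The labels do not state a pairing, and the main fit had no block. Because every correlation was over 0.1, a fit with the number as a block was run as an alternative. Differences and adjusted p-values are those without the block unless it is named. Other alternatives were another variance model, median-centred arrays, all probe sets of a gene, a filter on dim genes, an added offset, 2 groups alone and each array left out.

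The genes and lists were chosen with earlier results of these data known. Named in the text are the 5 genes, up to 4 genes per list with the largest tip difference from mesenchyme, Cdh1, Ret, Six2 and Foxd1, and the genes most alike in profile. Others are marked as chosen after their values were seen. Promoter sequences are those of RefSeq. Figures used matplotlib 3.10.9 in Python 3.11.15.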

Additional observations from a re-analysis of the deposited data

Results flagged for a closer look

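Probe sets outside the comparisons, those annotated to several adult globin genes at once, read above the single mIMCD-3 array in every tissue. These 4 probe sets were chosen after their values were seen. On 1417184_s_at, shared by 4 adult beta-type genes (Hbb-bt, Hbb-bs, Hbb-b2 and Hbb-b1), the log2 intensity was 10.49 and 10.40 in tips, 11.64 and 11.71 in stalks, 11.99 and 12.10 in mesenchyme and 8.32 in mIMCD-3, so that the tip mean stood 2.13 above the cell line. The adult alpha-type genes Hba-a1 and Hba-a2 share the other 3. Probe set 1417714_x_at read 9.32 and 9.12 in tips, 10.93 and 10.89 in stalks, 11.61 and 11.67 in mesenchyme and 4.42 in mIMCD-3. The tip means on 1417714_x_at, 1428361_x_at and 1452757_s_at stood 4.80, 6.54 and 8.32 above the cell line.

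On all 4 the tissues did not overlap, and tips were lower than mesenchyme by limma over 45037 probe sets, with differences of -1.60 on 1417184_s_at (adjusted p = 0.000141), -2.42 on 1417714_x_at, -1.38 on 1428361_x_at and -1.29 on 1452757_s_at. Stalks were called lower than mesenchyme only on 1417714_x_at (-0.73, limma adjusted p = 0.0284), and not on the others (-0.37, -0.30 and -0.32). Probe sets 1428361_x_at and 1452757_s_at read 13.51 to 13.72 on the mesenchyme arrays, whose brightest probe sets read 14.21 and 14.24. The part that closeness to the top of the scale plays there was not tested. Of the single-gene probe sets, the brightest of Hbb-b2 (-0.33) and those of Hba-a2 (-0.22) and Hba-a1 (0.08) were not called, also at an unadjusted p under 0.05, and their summed intensity was 81.0 to 84.0 in tips, 79.5 to 86.3 in stalks, 87.8 to 103.8 in mesenchyme and 82.0 in mIMCD-3. The mean of both probe sets of Hbb-b2 was called lower in tips than in mesenchyme (-0.89, limma adjusted p = 0.00125), and 1 of the 3 genes was likewise called lower in tips than in stalks. Globin genes resemble each other in sequence, and how far these probe sets share signal with the embryonic globins was not tested.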

How the results depend on the processing

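In tips against mesenchyme the 3 globins and Alas2 were called lower and Klf1 was not under all 14 alternatives, with differences from -1.11 to -0.82 for Hbb-y, -3.04 to -2.79 for Hbb-bh1, -2.57 to -2.37 for Hba-x, -1.66 to -1.07 for Alas2 and -0.48 to -0.15 for Klf1. Of the 5 genes, 1 to 3 were called lower in stalks against mesenchyme and 2 to 4 in tips against stalks as single arrays were left out. Apart from the call of Klf1 in stalks against mesenchyme, the replicate block changed no call of these 5 genes. Counts over all genes moved most. With the replicate block they were 2331 lower and 2037 higher in tips against mesenchyme, 577 lower and 1231 higher in stalks against mesenchyme and 2131 lower and 1623 higher in tips against stalks. Trend and robust variance gave 354 lower in stalks against mesenchyme and 890 higher in tips against stalks. With every probe set tested, which raises the number of features, 2429 were lower and 2083 higher in tips against mesenchyme and 2009 lower in tips against stalks. With single arrays left out, 987 to 1927 were lower and 899 to 1508 higher in tips against mesenchyme, 92 to 316 lower and 427 to 922 higher in stalks against mesenchyme, and 724 to 1789 lower and 197 to 769 higher in tips against stalks. Values that changed sign among those recomputed were uncalled: Gata1 in tips against mesenchyme (0.09 without mesenchyme array 2, and -0.36 to 0.11 over the left-out arrays), Hba-a1 in tips against mesenchyme (-0.03 without tip array 2, and -0.10 to 0.27 over the left-out arrays), Ppbp in stalks against mesenchyme (-0.0030 with the offset, -0.0094 without stalk array 1, and -0.20 to 0.21 over the left-out arrays), Blvrb in the same comparison (-0.0017 without mesenchyme array 2, up to 0.21), Rhag in tips against stalks (-0.26 to 0.19 over the left-out arrays) and Klf1 in stalks against mIMCD-3 (-0.11 with centred arrays). The cause was not tested. Leaving out the dimmest 40% of genes, which removes list genes from the test, left 2 membrane genes, 1 transcription factor gene, 1 iron or other erythroid gene and 4 macrophage genes called lower in tips against mesenchyme. Klf1 and Gata1 read near the level of the cell line in all tissues, and 2 arrays per tissue limit what can be resolved there.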
